A study of Homo sapiens with 6 samples.

Results

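Histone acetyltransferases transfer acetyl groups from acetyl-CoA to lysines of histones and other proteins, the reaction that histone deacetylases undo. They fall into families named after founding members. The GNAT family, related to yeast GCN5, holds KAT2A and KAT2B, the exchangeable catalytic subunits of the SAGA and ATAC coactivator complexes, and HAT1, which acetylates newly made histone H4 before it is placed on DNA. The MYST family holds KAT6A and KAT6B, which work in complexes with BRPF scaffold proteins, KAT7, which acetylates H3 and H4 with BRPF or JADE scaffolds, and KAT8, which acetylates lysine 16 of H4. EP300 and CREBBP are a pair of closely related coactivators that acetylate H3 at enhancers and promoters. ING4 is not an enzyme, but a plant homeodomain protein that reads methylated H3 and brings the KAT7 complex to it. KAT6A, CREBBP and EP300 are known in acute myeloid leukaemia as partners in fusion genes.

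These 10 genes, 9 acetyltransferases outside the TIP60 complex and ING4, were taken by symbol among 19775 genes with a probe set of their own. All 10 had at least 1 probe set naming that 1 gene, and together they had 23 of the 54613 probe sets tested. The GNAT family had 3 probe sets, the MYST family 12, the p300/CBP pair 6 and ING4 2. The cells were OCI-AML3, an established acute myeloid leukaemia line that carries a mutation of NPM1. All were kept in RPMI medium with fetal calf serum. One group of 3 samples received DMSO, the solvent, and the other 3 received Vorinostat (SAHA), an inhibitor of histone deacetylases, at 1 μM, and both were collected at 24 h. RNA was hybridised to Affymetrix HG-U133 Plus 2.0 arrays. Both groups carry the replicate numbers 1, 2 and 3, but nothing read here states that they came from separate cultures. A p-value then covers the spread among these 6 samples alone, and that spread may be technical.

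Values are log2 array values as deposited. Signal differed more by replicate number than by treatment. Between 14.9% and 15.8% of all probe sets lay above a log2 value of 3 on the number 1 arrays and between 5.06% and 6.83% on the other 4, and the medians lay between 1.55 and 1.66. A value under 3 is therefore read here as dim, with the size of its change poorly measured. The level of 3 was set with these data known. Of 7 myeloid markers with a probe set of their own, CEBPA and LYZ exceeded 3 on all 6 arrays, while MPO, ANPEP, ITGAM, SPI1 and CSF1R exceeded it on none. Of 6 markers of T, B, erythroid and platelet lineages, ITGA2B exceeded it on 1 array, with 3.25 on DMSO replicate 3, and the others on none. In bulk RNA, fewer cells of a type and less RNA per cell cannot be told apart.

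No acetyltransferase gene was shown to change with Vorinostat. Of the 23 probe sets, 15 had a lower mean and 8 a higher mean with Vorinostat, against 54% lower among all probe sets. At an unadjusted p under 0.05 from limma, 0 of 23 were lower and 0 were higher, where 0.5% and 0.498% of all probe sets were. This fit had no block and counted signal differences between the replicate numbers as spread, which limits what it can call. Every one of the 23 had an adjusted p of 1. With the replicate number as a block, 0 were lower and 1 was higher, a probe set of ING4, where 2.09% and 1.59% of all probe sets were, and 0 passed an adjusted p. Within the replicate numbers 1 of the 23 was lower each time and 3 were higher each time, against 14.7% and 12.4% of all probe sets. In replicate number 1, 5 of the 23 were over 2-fold lower, against 3.33% of all probe sets lower and 5.27% apart in either direction. In number 2 it was 1, against 4.19% and 5.47%. In number 3, 0 were over 2-fold lower and 1 was higher, against 0.961% lower and 2.8% apart. Large differences were thus concentrated in number 1, and those probe sets were not over 2-fold lower in the others. Of them, those of KAT6B, KAT7, EP300 and CREBBP already lay between 1.25 and 2.10 with DMSO in numbers 2 and 3. A 2-fold fall could hardly show there. On DMSO replicate 1, 34.8% of the 23 and 15.8% of all probe sets exceeded 3, so the shares do not compare probe sets of like brightness.

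**Figure D1:**
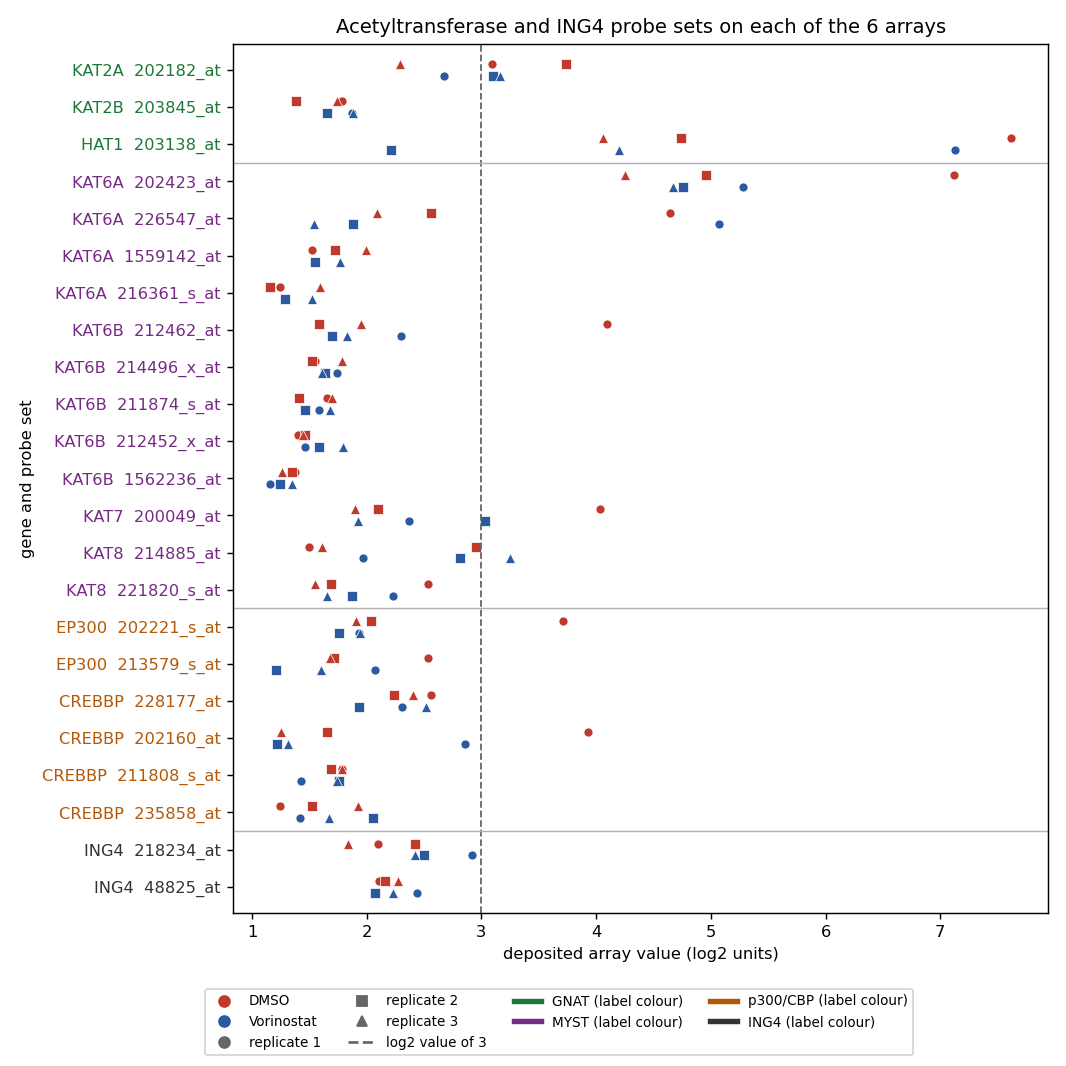
Log2 array value (horizontal axis) of each of the 23 probe sets (vertical axis), with DMSO in red, Vorinostat in blue and the marker shape giving the replicate number. The dashed line is a log2 value of 3, and 14 probe sets stay at or under it on all 6 arrays, while 202423_at of KAT6A alone stays above it on all 6.

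Most of the probe sets were dim. Of the 23, 14 were above 3 on no array (60.9%, against 80.3% of all probe sets), 4 on 1 array, 4 on 2 to 5 arrays and 1 on all 6. For 19 of the 23 both group means lay under 3, and the exceptions were 1 probe set each of KAT2A and HAT1 and 2 of KAT6A. KAT2B and ING4 were the 2 genes with no array above 3. Different probe sets bind their targets with different strength, so their values do not order the genes by RNA level.

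The promoters of ING4, KAT2B and EP300 are printed because these genes held probe sets that pointed 1 way in each replicate number, a choice made after the values were seen. KAT6B also held such a probe set, but has several promoters in the RefSeq table. The arrays measure RNA and not the promoter. Each run gives the 250 bases before the RefSeq start in GRCh38.p14, at chr12:6663120-6663369 on the minus strand for ING4, chr3:20040196-20040445 on the plus strand for KAT2B and chr22:41092342-41092591 on the plus strand for EP300. Capitals mark matches, on either strand, to the GC box GGGCGG and to the ETS core CCGGAA.
ING4: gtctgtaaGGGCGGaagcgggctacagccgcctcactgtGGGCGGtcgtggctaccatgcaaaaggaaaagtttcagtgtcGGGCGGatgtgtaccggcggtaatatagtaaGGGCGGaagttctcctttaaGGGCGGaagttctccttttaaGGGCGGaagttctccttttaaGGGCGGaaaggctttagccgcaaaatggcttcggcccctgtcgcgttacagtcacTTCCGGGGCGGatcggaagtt
KAT2B: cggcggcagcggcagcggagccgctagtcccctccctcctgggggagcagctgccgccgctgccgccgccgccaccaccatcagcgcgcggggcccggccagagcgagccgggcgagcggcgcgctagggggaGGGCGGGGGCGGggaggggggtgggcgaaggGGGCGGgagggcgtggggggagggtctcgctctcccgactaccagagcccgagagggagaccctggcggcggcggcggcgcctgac
EP300: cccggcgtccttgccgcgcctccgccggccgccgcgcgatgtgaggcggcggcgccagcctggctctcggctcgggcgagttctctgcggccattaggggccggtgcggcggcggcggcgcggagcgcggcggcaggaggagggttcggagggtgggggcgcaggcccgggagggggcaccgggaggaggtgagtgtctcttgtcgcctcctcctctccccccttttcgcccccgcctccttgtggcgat
The ING4 run held 8 GC boxes and 1 ETS core, which overlaps the last GC box. KAT2B held 3 GC boxes, and EP300 held neither motif. A GC box was found in 42.5% and an ETS core in 14.5% of 34943 RefSeq promoter runs of the same length. The CCAAT box CCAAT, the cAMP response element TGACGTCA and the E-box CACGTG had no match in these 3 runs, and were in 32%, 1.63% and 6.32% of all runs. A match of letters is a description and not a binding site.

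HAT1, whose product acetylates free histone H4, had 1 probe set. With DMSO it was 7.62, 4.74 and 4.06 in replicates 1, 2 and 3, and with Vorinostat 7.13, 2.21 and 4.20. The groups overlapped and the number 1 arrays were the highest of each. The means were 5.47 ± 1.89 (SD, n = 3) and 4.51 ± 2.47 (SD, n = 3). Its mean difference was the most negative of the 23, -0.96 (standard error 1.55, 95% interval -4.84 to 2.93). It came mostly from replicate number 2, where the difference was -2.53, against -0.49 and 0.15 in numbers 1 and 3. Without Vorinostat replicate 2 the difference was 0.19, and without DMSO replicate 1 it was 0.12. With the replicate number as a block the 95% interval of the difference was -2.51 to 0.59. A control list of 10 housekeeping genes had a median difference of -1.74 in number 2, and its part in the HAT1 value was not tested.

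KAT2A, the GCN5 enzyme, had 1 probe set, with 3.09, 3.74 and 2.29 in DMSO replicates 1, 2 and 3 and 2.67, 3.10 and 3.16 with Vorinostat. Its values overlapped and the sign changed with the number, at -0.41, -0.64 and 0.86. The mean difference was -0.06 (standard error 0.391, 95% interval -1.05 to 0.92). KAT2B, the paralog once named PCAF, was dim throughout, with 1.78, 1.38 and 1.74 with DMSO and 1.87, 1.65 and 1.88 with Vorinostat. It was higher in each number, by 0.09, 0.27 and 0.14, but the groups overlapped and the mean difference was 0.17 (standard error 0.149, 95% interval -0.21 to 0.54). The 3 GNAT genes thus shared no direction.

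KAT6A, once named MOZ, had 4 probe sets that did not read alike. The brightest, 202423_at, gave 7.12, 4.96 and 4.25 with DMSO and 5.28, 4.76 and 4.67 with Vorinostat. The Vorinostat values lay inside the DMSO range, whose upper end was DMSO replicate 1, above the other 5 arrays. Its differences were -1.85, -0.20 and 0.42 in numbers 1, 2 and 3, with a mean of -0.54 (standard error 0.764, 95% interval -2.46 to 1.38), and without DMSO replicate 1 the value was 0.30. The second, 226547_at, gave 4.64, 2.56 and 2.09 with DMSO and 5.07, 1.88 and 1.54 with Vorinostat. Its differences were 0.43, -0.68 and -0.55 in numbers 1, 2 and 3, so the signs of numbers 1 and 3 were opposite to those of 202423_at. The mean difference of 226547_at was -0.27 (standard error 1.18, 95% interval -3.23 to 2.70). With the replicate number as a block the interval was -0.98 to 0.44. Without both number 1 arrays the difference was -0.61 with an unadjusted p of 0.0503 from limma. The other two were dim, with differences of the means of -0.12 and 0.04.

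KAT6B, the MORF paralog, had 5 probe sets, and 212462_at held its 1 value above 3. It was 4.09, 1.58 and 1.95 with DMSO and 2.30, 1.70 and 1.83 with Vorinostat. The difference of -0.60 (standard error 0.695, 95% interval -2.35 to 1.15) lay in number 1, at -1.80, against 0.12 and -0.13 in numbers 2 and 3. Without DMSO replicate 1 it was 0.18. The other 4 probe sets had differences of the means between -0.07 and 0.18, and 212452_x_at was higher in each number, by 0.06, 0.13 and 0.35.

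KAT7, also named HBO1, had 1 probe set, with 4.03, 2.10 and 1.90 with DMSO and 2.37, 3.03 and 1.92 with Vorinostat. The highest array was DMSO replicate 1 and the next Vorinostat replicate 2, so the numbers pointed opposite ways, with -1.67, 0.94 and 0.02. The mean difference was -0.24 (standard error 0.653, 95% interval -1.88 to 1.40), and it was 0.44 without DMSO replicate 1 and 0.34 after quantile normalisation. KAT8, also named MOF, had the most positive value of the 23, in 214885_at. That probe set gave 1.50, 2.95 and 1.61 with DMSO and 1.97, 2.81 and 3.25 with Vorinostat, which overlapped. Its difference was 0.66 (standard error 0.52, 95% interval -0.65 to 1.96), from 0.47, -0.14 and 1.63 in numbers 1, 2 and 3. Without DMSO replicate 2 it was 1.12, with an unadjusted p of 0.0492 from limma. Its other probe set, 221820_s_at, differed by -0.01 (standard error 0.309), so the KAT8 probe sets did not share the change.

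EP300 was lower with both of its probe sets, though neither passed the test. The brighter, 202221_s_at, gave 3.71, 2.04 and 1.91 with DMSO and 1.93, 1.76 and 1.94 with Vorinostat. Only DMSO replicate 1 stood out, and the other 5 arrays lay between 1.76 and 2.04. The difference was -0.68 (standard error 0.508, 95% interval -1.95 to 0.60), from -1.78, -0.28 and 0.04 in numbers 1, 2 and 3, and it was -0.10 without DMSO replicate 1. The dimmer, 213579_s_at, gave 2.53, 1.71 and 1.68 with DMSO and 2.07, 1.21 and 1.60 with Vorinostat. It was the 1 probe set of the 23 that was lower in each number, by -0.46, -0.50 and -0.08. Its groups overlapped, with a mean difference of -0.35 (standard error 0.33, 95% interval -1.17 to 0.48). With the replicate number as a block the interval was -0.71 to 0.02.

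CREBBP had 4 probe sets, 3 with a lower mean and 1 with a higher one, and none passed the test. The one with the highest mean over the 6 arrays, 228177_at, gave 2.56, 2.24 and 2.40 with DMSO and 2.31, 1.93 and 2.52 with Vorinostat. The difference was -0.15 (standard error 0.185, 95% interval -0.61 to 0.32). The array with most signal was DMSO replicate 1 in 202160_at, at 3.93, where the other DMSO arrays had 1.65 and 1.25 and the Vorinostat arrays 2.86, 1.22 and 1.31. Its differences in numbers 1, 2 and 3 were -1.07, -0.43 and 0.06. The last probe set, 235858_at, ran the other way in numbers 1 and 2, with 0.18 and 0.53, and had -0.25 in number 3.

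ING4 had 2 probe sets, with means of 2.37 and 2.21 over the 6 arrays, and neither passed the test. The first, 218234_at, gave 2.10, 2.42 and 1.84 with DMSO and 2.92, 2.50 and 2.42 with Vorinostat. The lowest Vorinostat value and the highest DMSO value were both 2.42 and parted only beyond the digits printed. By that margin it was the 1 probe set of the 23 counted as having groups apart, against 5.27% of all probe sets in either direction and 2.39% with Vorinostat higher, while 212452_x_at of KAT6B, with a tie at 1.46, was counted as overlapping. The means were 2.12 ± 0.29 (SD, n = 3) and 2.61 ± 0.27 (SD, n = 3). The difference was 0.49 (standard error 0.213, 95% interval -0.04 to 1.03), a 1.41-fold higher value, from 0.82, 0.08 and 0.58 in numbers 1, 2 and 3, with an unadjusted p of 0.0637 and an adjusted p of 1 from limma. With the replicate number as a block the unadjusted p was 0.0481 and the adjusted p 0.887. Without DMSO replicate 2 the difference was 0.64 with an unadjusted p of 0.0337, and without both number 1 arrays it was 0.33 with an unadjusted p of 0.222. The second probe set, 48825_at, gave 2.11, 2.16 and 2.27 with DMSO and 2.44, 2.07 and 2.23 with Vorinostat. It overlapped between the groups and differed by 0.07 (standard error 0.127, 95% interval -0.25 to 0.39). Both ING4 probe sets were under 3 on all arrays.

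**Figure D2:**
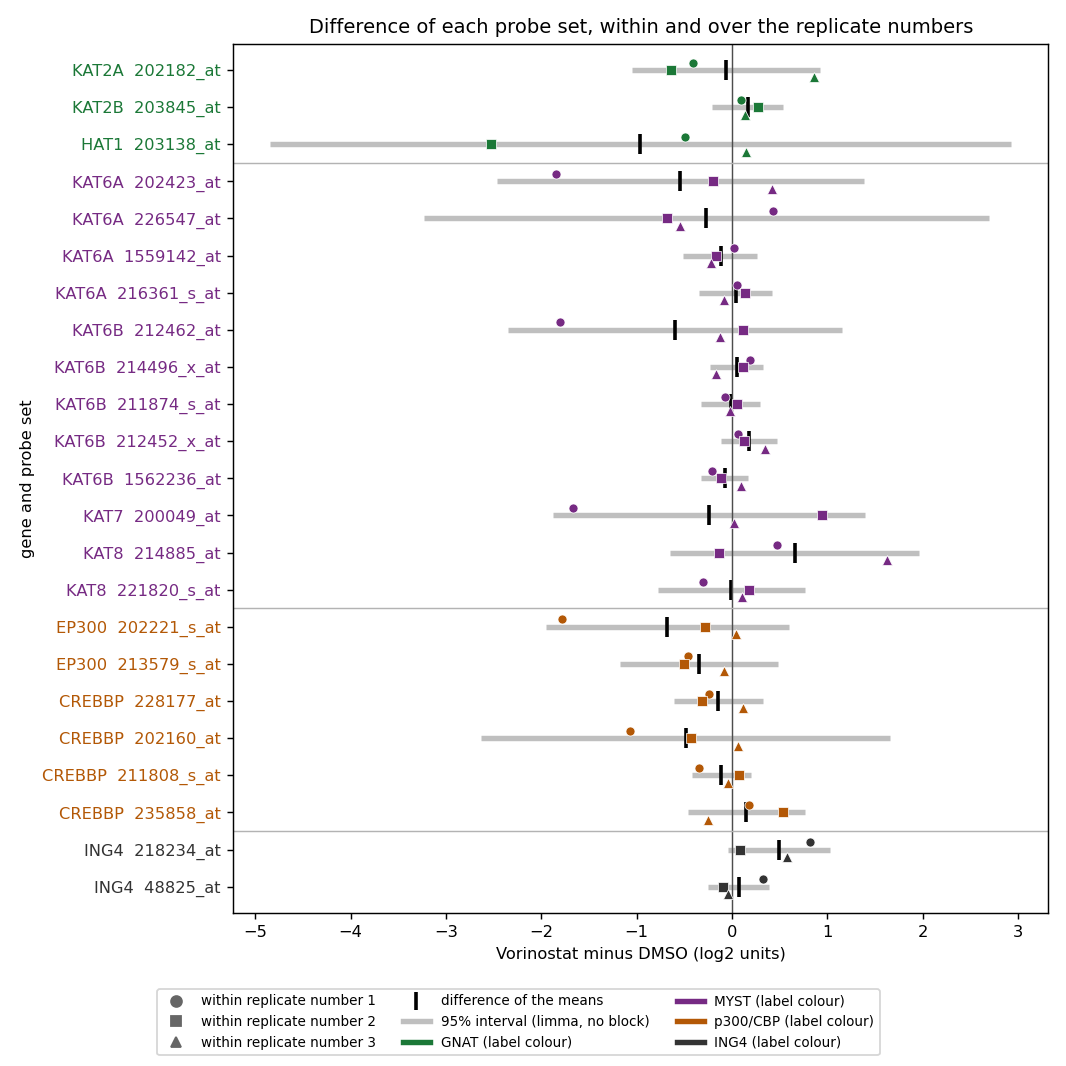
Vorinostat minus DMSO in log2 units (horizontal axis) of each probe set (vertical axis). Coloured markers are the differences within replicate numbers 1, 2 and 3, black bars the difference of the means and grey bars its 95% interval from limma without a block. All 23 intervals cover 0, and the one nearest to leaving it out is that of 218234_at of ING4, from -0.04 to 1.03.

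Over all probe sets of each family the p300/CBP median was the lowest and that of ING4 the highest, but the p300/CBP and GNAT medians moved between replicate numbers by more than they differed from MYST. Over the arrays the median difference was -0.25 for 6 p300/CBP probe sets, -0.06 for 3 GNAT probe sets, -0.04 for 12 MYST probe sets and 0.28 for 2 ING4 probe sets, against -0.02 for all probe sets. The p300/CBP median was -0.40, -0.30 and 0.00 in numbers 1, 2 and 3. The GNAT median was -0.41, -0.64 and 0.15, and the MYST median -0.03, 0.08 and 0.00. Thus the p300/CBP and GNAT medians were negative in numbers 1 and 2 and not in number 3, while the MYST median stayed near 0. The order of the 3 enzyme families was not stable. With 1 probe set a gene the MYST median was -0.39 and that of p300/CBP -0.41, without _x_at and _s_at probe sets MYST was lower at -0.24 against -0.15, and without DMSO replicate 3 GNAT was lower at -0.44 against -0.32. Probe sets of 1 gene are not independent and the families hold few genes, so no test was made of these medians. Exact permutation of 3 arrays against 3 cannot go below p = 0.1.

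**Figure D3:**
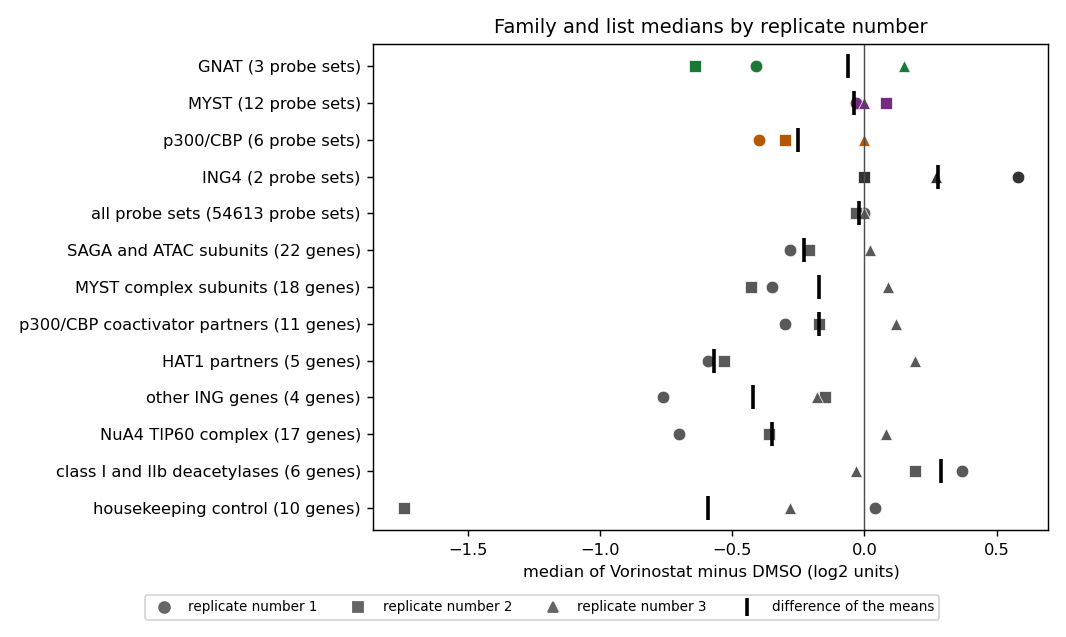
Median of Vorinostat minus DMSO in log2 units (horizontal axis) for each family, for all probe sets and for the lists of partner, counterpart and control genes (vertical axis). Markers give replicate numbers 1, 2 and 3 and black bars the median over the differences of the means. The p300/CBP markers stand at -0.40, -0.30 and 0.00, and the housekeeping genes spread from -1.74 to 0.04.

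Crossings of the level of 3 were counted within each replicate number. They mostly went with the larger differences, with exceptions for KAT2A and KAT6A in number 1. In replicate number 1, 8 of the 23 probe sets were above 3 with DMSO and 3 with Vorinostat. The 5 that dropped to 3 or under were 1 each of KAT2A, KAT6B, KAT7, EP300 and CREBBP, and 0 of 15 crossed upward, against 2.16% of all probe sets. The dropped probe sets of KAT6B, EP300, KAT7 and CREBBP had differences of -1.80, -1.78, -1.67 and -1.07. KAT2A dropped with a difference of only -0.41, from 3.09 to 2.67. The KAT6A probe set 202423_at had -1.85 and stayed above 3, at 7.12 and 5.28. Of the 8645 probe sets of the whole table above 3 on DMSO replicate 1, 17.1% were not above it on Vorinostat replicate 1. A value just above 3 needs a smaller change to cross, and the members were not matched to all probe sets by brightness. In number 2, HAT1 was the 1 of 3 that dropped, against 42.1% of all probe sets, and KAT7 was the 1 of 20 that crossed upward, against 1.19%. In number 3, 0 of 2 dropped, against 18.3%, and KAT2A and KAT8 were the 2 of 21 that crossed upward, against 1.96%. The probe sets of KAT6B, KAT7, EP300 and CREBBP lost in number 1 were already under 3 with DMSO in numbers 2 and 3, so they could not be lost there. None of these counts was tested.

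Among genes that work with these enzymes, those of the MYST complexes held the 3 that passed an unadjusted p under 0.05 from limma without a block. Of their 18 genes 2 were lower and 1 was higher, where 0.389% and 0.602% of all genes were. Within the replicate numbers, 5 of the 18 were lower each time and 1 was higher each time, against 13.7% and 13% of all genes. MCRS1, a subunit of the KAT8 NSL complex, was 3.23, 2.57 and 3.19 with DMSO and 2.34, 2.41 and 2.10 with Vorinostat, with all 3 Vorinostat arrays below the DMSO arrays. Its difference was -0.71 (standard error 0.215), from -0.88, -0.16 and -1.09 in numbers 1, 2 and 3. BRPF3, a scaffold of KAT7 and the KAT6 enzymes, was 2.16, 2.24 and 1.90 with DMSO and 1.81, 1.58 and 1.80 with Vorinostat, a difference of -0.37 (standard error 0.135), also with the groups apart. The study lists BRPF3 as decreasing on these samples, so its direction is not independent. Its lists took genes over 2-fold changed at an unadjusted p under 0.05. In the probe set and fit used here BRPF3 did not reach 2-fold. PGK1, ING3, EPC1, ACTL6A and ACRBP, given below as listed by the study, here also missed the fold cut-off, the p cut-off or both. MSL3, a chromodomain subunit of the KAT8 MSL complex, was 2.15, 1.94 and 1.85 with DMSO and 2.87, 2.13 and 2.64 with Vorinostat. It was higher in each number, by 0.72, 0.20 and 0.79, with a difference of 0.57 (standard error 0.218), and its groups overlapped only in that Vorinostat replicate 2 lay under DMSO replicate 1. All 3 had an adjusted p of 1 from limma, and each of them had both group means below 3.

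When replicate number was a block, 3 genes of the MYST complexes were lower and 1 was higher at an unadjusted p under 0.05, where 3.12% and 2.25% of all genes were. The lower ones were MCRS1, ING5 and HCFC1, and the higher one was MSL3. Each had an adjusted p of 0.887 from limma with the block. BRPF3 then had an unadjusted p of 0.0618 from limma. HCFC1, a host cell factor in the NSL complex named after its values were seen, differed by -1.30, -1.58 and -0.60 in numbers 1, 2 and 3. Its group means were 4.59 with DMSO and 3.43 with Vorinostat.

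The SAGA and ATAC subunits, which work with KAT2A and KAT2B, had 16 of 22 lower means and a median of -0.23, and 0 passed in either direction with or without the block. ENY2, of the SAGA deubiquitinase module, had -0.56, -2.12 and -0.32 in numbers 1, 2 and 3, with means of 3.97 and 2.97. TAF5L, of the SAGA core, had -0.34 (standard error 0.252). On the other side YEATS2, the acetyl-lysine reader of ATAC, had 0.24 (standard error 0.155), and SUPT20H, also of the SAGA core, had 0.10 (standard error 0.335). For the p300/CBP partners 7 of 11 means were lower, with a median of -0.17 and 0 genes past the test without a block. With the block NCOA2, a nuclear receptor coactivator, was lower at -0.53 (standard error 0.105 with the block and 1.09 without). CRTC2, a CREB coactivator, was higher with the block at 0.43 (standard error 0.0978 with it and 0.236 without). These were 1 lower and 1 higher of 11 genes, where 3.12% and 2.25% of all genes were. Both had an adjusted p of 0.887 from limma with the block. CITED1, a transactivator that binds CREBBP and EP300, had -0.34 (standard error 0.158 without the block).

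HAT1 works with the histone chaperones RBBP7 and NASP. Of the 5 genes of that list 4 had lower means, with a median of -0.57, and 0 passed without the block. NASP was 7.19, 3.37 and 4.37 with DMSO and 6.92, 2.32 and 2.73 with Vorinostat. It was the 1 gene of the 5 lower with the block at an unadjusted p under 0.05, where 3.12% of all genes were. Its difference was -0.99 (standard error 0.292 with the block and 1.6 without), with an adjusted p of 0.887 from limma with the block. ASF1A, the chaperone that takes H3 and H4 to assembly factors, had 0.71 (standard error 0.356 with the block and 0.948 without). The housekeeping control list had 10 of 10 lower means and a median of -0.59, with medians of 0.04, -1.74 and -0.28 in numbers 1, 2 and 3. Of its 10 genes 1, HPRT1, was lower with the block, where 3.12% of all genes were, and had an adjusted p of 0.887 from limma. The study lists PGK1 of this list as decreasing on these samples.

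**Figure D4:**
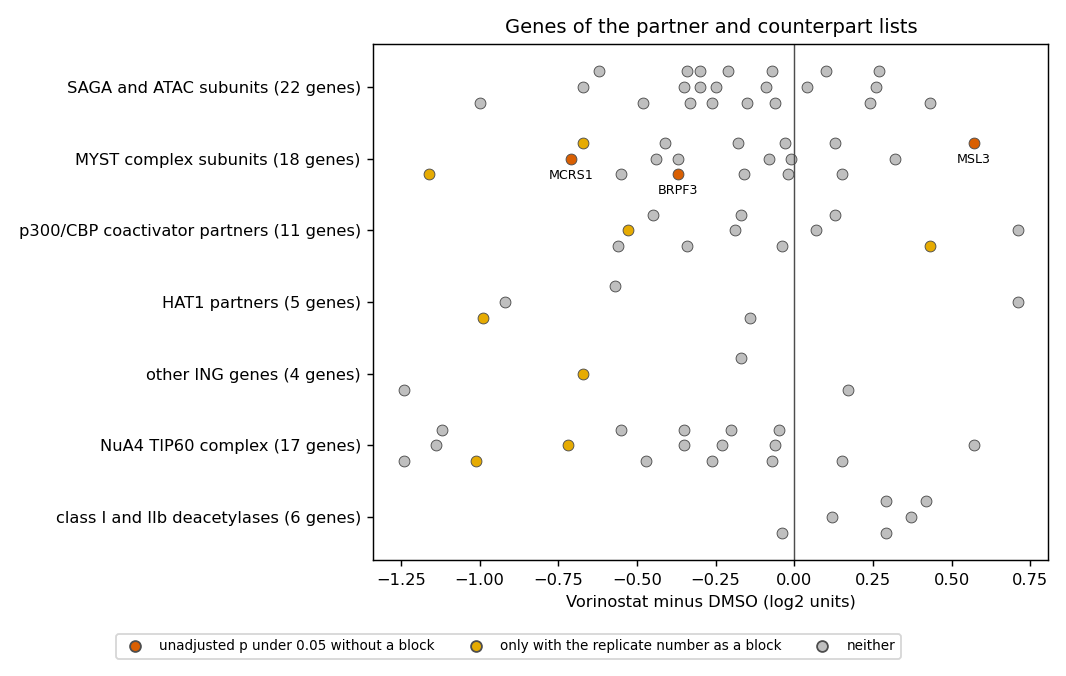
Vorinostat minus DMSO in log2 units (horizontal axis) for each gene of 7 lists (vertical axis), 1 point a gene with vertical offsets for legibility. Orange marks an unadjusted p under 0.05 from limma without a block, yellow only with the replicate number as a block, and grey neither. The 3 orange points are MCRS1 at -0.71, BRPF3 at -0.37 and MSL3 at 0.57.

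Of the 4 other ING genes 3 had lower means and 1 a higher mean, with a median of -0.42, and 0 passed without the block. Their differences from ING4 were not tested. ING5, which takes the place of ING4 in the KAT7 complex and also serves KAT6A and KAT6B, was 3.26, 2.23 and 2.28 with DMSO and 2.05, 1.67 and 2.05 with Vorinostat. It was lower in each number, by -1.21, -0.56 and -0.23, with a difference of -0.67 (standard error 0.316) and groups apart. It passed an unadjusted p under 0.05 from limma only with the block, at 0.0365, against 0.0835 without it. With the block 3.12% of all genes were lower at that level, and the adjusted p of ING5 was 0.887. ING3, of the TIP60 complex, had -3.54, -0.04 and -0.13 in numbers 1, 2 and 3, so its -1.24 (standard error 1.06) came from DMSO replicate 1, and the study lists it as decreasing on these samples. ING1 and ING2, which serve the SIN3 deacetylase complex, had 0.17 (standard error 0.476) and -0.17 (standard error 0.152).

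The neighbouring acetyltransferase complex and the enzymes that Vorinostat targets were set beside the members. The NuA4 TIP60 complex had 15 of 17 lower means and a median of -0.35, with 0 genes past the test without a block. With it 2 were lower, where 3.12% of all genes were, and both had an adjusted p of 0.887 from limma. These were EPC1 at -0.72 (standard error 0.198 with the block), which the study lists as decreasing on these samples, and BRD8, named after its values were seen, at -1.01 (standard error 0.224 with the block). Its catalytic subunit KAT5 had -0.47 (standard error 0.217), from -0.77, -0.73 and 0.08 in numbers 1, 2 and 3. The study also lists ACTL6A of this complex as decreasing on these samples. The housekeeping control list was lower still, with 10 of 10 lower means and a median of -0.59. The 6 class I and IIb deacetylases had 5 higher means and a median of 0.29, and 0 passed with or without the block. HDAC8 had 0.37 (standard error 0.183) and HDAC2 0.29 (standard error 1.92), both higher in each number. The 10 members with 1 probe set a gene had a median of -0.19, against -0.02 for all genes. This lay between the NuA4 and deacetylase medians over all arrays, but in number 3 the members, at 0.14, were above both, at 0.08 and -0.03. None of these differences between lists was tested.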

How the data were processed

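The values are log2 array values as deposited, in 1 table over all 6 arrays. The study's methods describe import of the array files into Partek Genomics Suite. MAS5 and RMA are named in the processing notes of the submitters, without saying how each was used. The log2 scale was read from the values, which lay between 0.868 and 13.76. The arrays were not quantile normalised. The number of arrays limits the precision.

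The 62 control probe sets were set aside and the remaining 54613 fitted with limma 3.58.1 in R 4.3.3 (lmFit and eBayes, no block, no filter), with Benjamini-Hochberg adjustment over all of them. Standard errors and intervals are from this fit unless the block is named. Without a block, signal differences between the replicate numbers count as spread, which widens the intervals where they are large. The code was tested on simulated data. The annotation named 1 gene for 41091 probe sets, several for 1801 and none here for 11721. Lists use the probe set of each gene with the highest mean. TAF9, KAT14 and NCOA3 were not analysed here. The text names every member and up to 2 genes a direction from each list, those of lowest unadjusted p with 1 sign in each replicate number, plus KAT5, the other ING genes and deacetylases where set beside a member. HCFC1 and BRD8 fall outside this rule. The members and lists were chosen with earlier results of these data known. Promoter runs for 8 of the 10 members were matched by symbol in RefSeq, build GRCh38.p14.

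Arrays of the same number deviated together from their group means over all probe sets, with correlations of 0.874, 0.599 and 0.672 for numbers 1, 2 and 3. As each was over 0.1, samples of 1 number were treated as pairs in the block. Numbers 2 and 3 were not told apart, since crossing them gave 0.594 and 0.695. The block fits and the differences within numbers 2 and 3 therefore rest on the labels.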

Additional observations from a re-analysis of the deposited data

How the results depend on the processing

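The alternatives were a replicate block, quantile normalisation, the methods' t-test, only probe sets with a mean of at least 3, each array left out in turn, and both number 1 arrays left out. The count of lower members, 0, was 0 under all of these. The count of higher members, 0, was 1 with the replicate block and between 0 and 2 with 1 array left out, the 2 being without DMSO replicate 2. Over the 7 partner and counterpart lists, 2 genes were lower and 1 was higher. With the replicate block these were 7 and 2, with quantile normalisation 4 were lower, with the methods' t-test 0 were higher, with a mean of at least 3 both were 0, and without both number 1 arrays 5 were lower and 0 higher. With 1 array left out, 0 to 5 were lower and 0 to 1 higher. The count was 0 lower without DMSO replicate 1 or Vorinostat replicate 3, 1 without Vorinostat replicate 2, and 5 without DMSO replicate 3 or Vorinostat replicate 1. The 1 member lower and 3 higher in each number became 2 lower and 4 higher after quantile normalisation and 0 and 0 with a mean of at least 3, where 3 probe sets were left.

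The MYST median difference, -0.04, was 0.01 after quantile normalisation, -0.54 with a mean of at least 3, 0.02 without both number 1 arrays, -0.39 with 1 probe set a gene, -0.24 without _x_at and _s_at probe sets, and between -0.11 and 0.17 with 1 array left out. The GNAT median, -0.06, was 0.18 after quantile normalisation, 0.11 without both number 1 arrays, -0.51 with a mean of at least 3 and between -0.44 and 0.19 with 1 array left out. The p300/CBP median, -0.25, was -0.15 without _x_at and _s_at probe sets, -0.41 with 1 probe set a gene and between -0.37 and -0.07 with 1 array left out, and that of ING4 between 0.16 and 0.35. Neither had a probe set with a mean of at least 3.

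By gene, for the probe set with the highest mean, the difference of KAT2A turned to 0.29 after quantile normalisation and 0.11 without both number 1 arrays, that of KAT6A to 0.11 without both number 1 arrays, and that of KAT7 to 0.34 and 0.48. With 1 array left out KAT2A ranged from -0.44 to 0.29, HAT1 from -2.26 to 0.19, KAT6A from -1.14 to 0.30, KAT6B from -1.08 to 0.18, KAT7 from -0.63 to 0.44 and CREBBP from -0.28 to 0.02. KAT2B, KAT8, EP300 and ING4 kept their sign in every setting in which that probe set was fitted. Without both number 1 arrays the second probe set of ING4 went from 0.07 to -0.06 and that of KAT8 from -0.01 to 0.14. The second of KAT6A, 226547_at, went from -0.27 to -0.61. The causes were not tested. The size of a change in a probe set under 3 is poorly measured.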

Other observations

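ING4 lies between ACRBP and ZNF384 among the protein-coding genes of the RefSeq table, and these neighbours were looked at after the value of ING4 was seen. ACRBP was 1.38, 1.93 and 2.11 with DMSO and 1.94, 1.86 and 2.99 with Vorinostat, with differences of 0.56, -0.07 and 0.88 in numbers 1, 2 and 3, and the study lists it as increasing on these samples. ZNF384 was 5.38, 3.94 and 2.98 with DMSO and 3.16, 6.62 and 3.58 with Vorinostat, so its differences of -2.22, 2.68 and 0.60 in numbers 1, 2 and 3 shared no sign.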
